A study of Homo sapiens with 6 samples.

Results

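The genes described here are tenascin C (TNC), fibronectin (FN1), CD44, agrin (AGRN), thrombospondin 1 (THBS1) and the integrin subunits ITGA3, ITGA6, ITGAV, ITGB1 and ITGB4. All cassette exon events listed under these 10 symbols were taken, which gave 44 of the 24725 events in the table, in 8 genes. ITGAV and THBS1 had 0 events. RNA-seq was carried out in 6 cultures of the MDA-MB-231-BrM2a line, which was derived from human MDA-MB-231 breast cancer cells for its capacity to colonize the brain. The 3 Control cultures were a non-clonal population carrying the empty pRetroX-Tight-Pur vector. The 3 RBM47 cultures were 1 clone, WT10, carrying Flag-tagged wild-type RBM47, an RNA-binding protein, in the same doxycycline-inducible vector. All 6 cultures had received doxycycline at 10 ng/ml for 3 days. Since RBM47 was expressed in 1 clone and Control cells were not cloned, RBM47 and the choice of clone cannot be told apart. Nothing in the labels says that the cultures of a group were grown independently. P-values from the rates of single cultures thus measure only the spread between these samples, which may be technical. Fisher's exact tests used reads pooled over the cultures of a group. Their p-values measure no spread between cultures, however small they are.

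Tenascin C, fibronectin, agrin and thrombospondin are proteins of the extracellular matrix, and integrins are paired alpha and beta subunits that bind such proteins outside the cell and connect to the cytoskeleton inside it. CD44 is a receptor for hyaluronan. Many of these proteins are made in several forms, because certain exons can be included in the mRNA or skipped. Such exons encode extra fibronectin type III repeats (TNC, FN1), an optional part of the stem next to the membrane (CD44) or the cytoplasmic tail (integrins). Changes in such forms are well known from development, wound repair and the transition between epithelial and mesenchymal states.

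Exons of 3 genes are shown first, since the results on ITGA6, CD44 and FN1 turn on them. They were read from GRCh37 on the strand of the gene, with exon bases in capitals and neighbouring intron bases in lower case. The ITGA6 exon is the A exon at chr2:173366500-173366629, 130 bases long, which brings its own cytoplasmic tail and stop codon, so that transcripts that include it encode the A form of the subunit and transcripts that skip it the B form. Its 108 coding bases, the stop codon included, are printed from chr2:173366470-173366607 (plus strand). The CD44 exon is v10, the last variant exon, 204 bases long, printed from chr11:35232763-35233026 (plus strand). The FN1 exons are EDA (also called EIIIA, 270 bases) and EDB (EIIIB, 273 bases), each encoding 1 fibronectin type III repeat. They are printed with intron bases from chr2:216245519-216245818 (EDA) and chr2:216257641-216257939 (EDB), both on the minus strand.
ITGA6 exon A: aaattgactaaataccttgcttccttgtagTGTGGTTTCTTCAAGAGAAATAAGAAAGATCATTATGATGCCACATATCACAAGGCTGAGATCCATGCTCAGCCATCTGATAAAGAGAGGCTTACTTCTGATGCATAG
CD44 exon v10: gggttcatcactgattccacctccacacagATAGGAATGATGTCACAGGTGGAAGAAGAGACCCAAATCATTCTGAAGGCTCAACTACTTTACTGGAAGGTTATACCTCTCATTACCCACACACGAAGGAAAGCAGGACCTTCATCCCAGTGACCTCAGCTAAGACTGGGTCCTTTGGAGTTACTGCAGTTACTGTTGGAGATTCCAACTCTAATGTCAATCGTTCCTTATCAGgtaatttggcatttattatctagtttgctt
FN1 exon EDA: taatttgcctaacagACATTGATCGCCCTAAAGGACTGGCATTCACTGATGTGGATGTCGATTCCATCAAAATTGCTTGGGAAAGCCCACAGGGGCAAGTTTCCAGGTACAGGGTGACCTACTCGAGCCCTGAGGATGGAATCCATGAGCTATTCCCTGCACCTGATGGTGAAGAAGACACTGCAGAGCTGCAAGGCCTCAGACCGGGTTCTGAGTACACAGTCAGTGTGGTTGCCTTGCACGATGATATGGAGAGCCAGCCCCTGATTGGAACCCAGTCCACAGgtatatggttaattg
FN1 exon EDB: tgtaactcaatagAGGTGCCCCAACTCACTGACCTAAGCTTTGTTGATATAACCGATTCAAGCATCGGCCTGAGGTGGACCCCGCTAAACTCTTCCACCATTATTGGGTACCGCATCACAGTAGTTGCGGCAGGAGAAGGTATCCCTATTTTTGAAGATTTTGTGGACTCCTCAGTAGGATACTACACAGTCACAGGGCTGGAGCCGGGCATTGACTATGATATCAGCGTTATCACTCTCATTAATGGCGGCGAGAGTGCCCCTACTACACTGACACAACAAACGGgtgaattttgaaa

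The measure is the inclusion rate, the fraction of transcripts that include the exon as read from splice junctions, with 0 for an exon always skipped and 1 for an exon always included. The table gave a rate for each culture and junction reads summed over the 3 cultures of a group, so the depth of a single culture is unknown. In 11 of the 44 rows the rates did not average to the printed group averages, and all 11 had a Fisher's exact p of at most 0.05 from the group reads. For 7 of them the rates were taken from the row that carried both printed averages. For 3 they came from a row that carried the printed RBM47 average but not the printed Control average. The remaining 1, an ITGB1 event, was left without rates. Those 3 are the events of ITGA6, CD44 and TNC that lead the results, and their rates were therefore checked against the junction reads, which were not used for matching. Across all events, junction reads came to 26498401 in Control and 24116982 in RBM47 cultures, and RBM47 itself had 0 events, so that the transgene could not be checked in this table. Of 6 genes typical of this line, 5 had events, and CAV1 had 0. Their highest reads of an event in Control and RBM47 cultures were 171444 and 122643 for VIM and 26313 and 19349 for ANXA1. They were 10845 and 4442 for CD44, 839 and 854 for SPARC and 550 and 282 for MSN. Of 9 epithelial genes, 2 had events, KRT8 (up to 3199 and 6358 reads) and ESRP2 (38 and 29). A gene without a counted cassette exon has 0 events whatever its expression, so that these counts do not show the identity of the line. RBM47 replicate 2 stood apart, with 14.8% of its rates at exactly 0 or 1 among events of intermediate rate, where the other cultures had 6.10% to 7.63%.

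The comparison asked which exons of these genes differed in inclusion when RBM47 was expressed. Exon A of ITGA6 and 1 outer TNC event were included less, and the CD44 event between the last constant exon before the variant region and v10, and 1 ITGB4 event, were included more. These 4 of 43 events with rates (9.30%) passed the criteria of the study. The criteria were an unadjusted Fisher's exact p of at most 0.05, at least 10 reads and a mean rate difference of 0.2 or more. Mean rates here are those of the matched rows, so that the counts are not the study's own. By the printed averages, the ITGA6 event (0.443 in Control and 0.260 in RBM47 cultures) would fall short of 0.2. The TNC event (0.163 and 0.603) would go the other way. Over all events 1.41% passed, 0.615% with a higher and 0.793% with a lower rate in RBM47 cultures. The genes were chosen with results of these data known, so that nothing is read from the larger share. A test on the rates of the 6 cultures (limma, on the 13 events with a mean rate of 0.1 to 0.9) called the ITGA6 and the CD44 event, 2 of 13, against 1.53% of all events tested. All rates of 1 group lay above those of the other in 6 of 43 events (13.95%), 4 higher and 2 lower in RBM47 cultures, against 9.93% of all events. Of the 43 events, 34 differed by less than 0.05 in mean rate. The median absolute difference was 0.0131, against 0.0114 over all events.

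**Figure D1:**
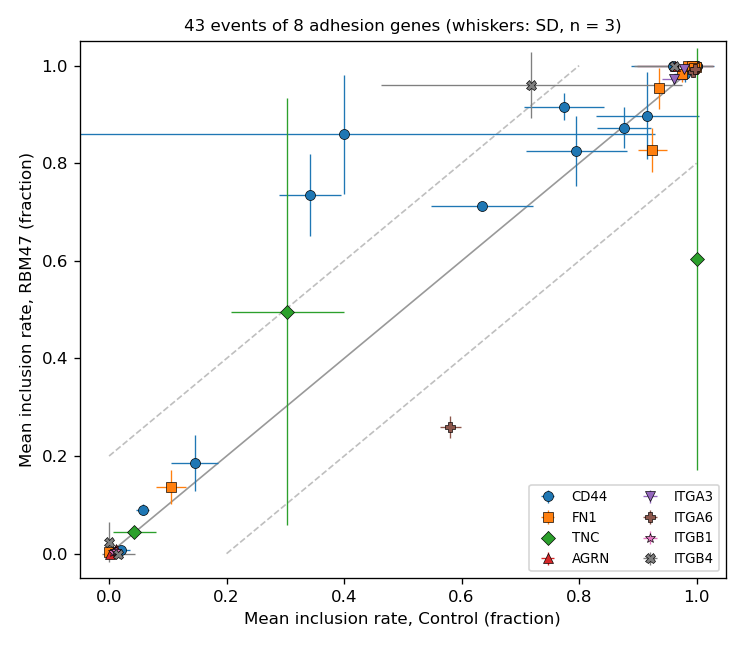
Mean inclusion rate in RBM47 against Control cultures for 43 events of 8 genes, both as fractions, with SD over 3 cultures as whiskers, the line of equal rates and dashed lines at a difference of 0.2. Most events sit in the 2 corners near 0 or 1. The ITGA6 event lies below the lower dashed line with small whiskers, and the CD44 event at 0.342 and 0.734 above the upper one. The other CD44 event above that line, at 0.400 and 0.859, spread from 0 to 1 among Control cultures and did not pass Fisher's exact test.

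Among the integrins, the event called by limma lay in ITGA6, the alpha subunit of laminin-binding integrins. The inclusion rate of exon A was 0.583, 0.597 and 0.563 in Control replicates 1, 2 and 3. It was 0.258, 0.237 and 0.283 in the RBM47 replicates. All 3 RBM47 rates lay below all 3 Control rates, and the mean went from 0.581 ± 0.0173 (SD, n = 3) to 0.260 ± 0.0229 (SD, n = 3), a difference of -0.321. The limma adjusted p was 0.000290. In junction reads, 4164 reads for inclusion and 1432 for skipping in Control stood against 533 and 674 in RBM47 cultures (Fisher's exact test, two-sided, p = 2.83e-88). Reads for the A form were thus 0.128 times and reads for the B form 0.471 times the Control number, so that skipping reads exceeded including reads in RBM47 cultures only. With 3 cultures a group, an exact permutation test of a single event cannot give a p below 0.1, which is the value for this and every other event below whose groups did not overlap.

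The rates of this ITGA6 event came from a row matched by the RBM47 average alone, and that row did not lie at the place of ITGA6 in the gene order of the table. The printed Control average, an authors' mean, was 0.443. Rates computed from the junction reads were 0.592 in Control and 0.283 in RBM47 cultures, near the matched means of 0.581 and 0.260. The exon was assigned by its spacing from another ITGA6 event in the GRCh37 annotation. The 2 other ITGA6 events shared their outer ends, had up to 8113 reads in Control, and were almost always included, with means of 0.994 and 0.997 in Control and 0.987 and 0.994 in RBM47 cultures.

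ITGA3, the alpha subunit of another laminin-binding integrin, has an alternative A exon of the same kind (142 bases, chr17:48165589-48165730, assigned by spacing). It was included in nearly all transcripts of both groups. Its rate was 0.967, 0.976 and 0.939 in Control and 0.973, 0.982 and 0.961 in RBM47 cultures, and the groups overlapped. The difference of 0.0113 was smaller than the Control SD of 0.0194, although Fisher's exact test gave p = 0.000351 (10263 reads for inclusion and 204 for skipping in Control, 9374 and 124 in RBM47 cultures). The A exons of ITGA6 and ITGA3 thus stood at 0.260 and 0.972 in RBM47 cultures. The other ITGA3 event, a 250-base exon at chr17:48145420-48145669, had rates of 0.971, 0.983 and 0.983 in Control and 0.995, 0.993 and 0.988 in RBM47 cultures. These rates did not overlap, but the difference was 0.0131.

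Beta subunits gave smaller or thinner results. ITGB1, the partner of most alpha subunits of the family, had 3 events with rates, and in all of them the exon was almost always skipped (means of 0.00666 to 0.0124 in Control and 0.00286 to 0.00636 in RBM47 cultures). Its event with the most reads rested on 3946 reads in Control and 1516 in RBM47 cultures, with rates of 0.00887, 0.00958 and 0.0131 against 0.0107, 0 and 0.00839, which overlapped. The ITGB1 event without rates had 5 reads for inclusion and 42 for skipping in Control and 4 and 6 in RBM47 cultures (Fisher's exact p = 0.0412), and no difference in rate is given for it.

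ITGB4, the partner of ITGA6 in hemidesmosomes, had 4 events, each with 120 or fewer reads in Control. Its last event, between outer ends that the table gives as 71262251 and 71264292 on chromosome 17, had rates of 1, 0.5 and 0.655 in Control and 0.882, 1 and 1 in RBM47 cultures. The groups overlapped, since Control replicate 1 stood at 1. The difference of 0.242 was smaller than the Control SD of 0.256, and the limma adjusted p was 0.576. It passed the study criteria through the reads, 63 including and 10 skipping in Control against 49 and 1 (Fisher's exact p = 0.0273), and without Control replicate 2 the difference was 0.133. The remaining 3 ITGB4 events lay within 0.04 of 0 or 1 in both groups.

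**Figure D2:**
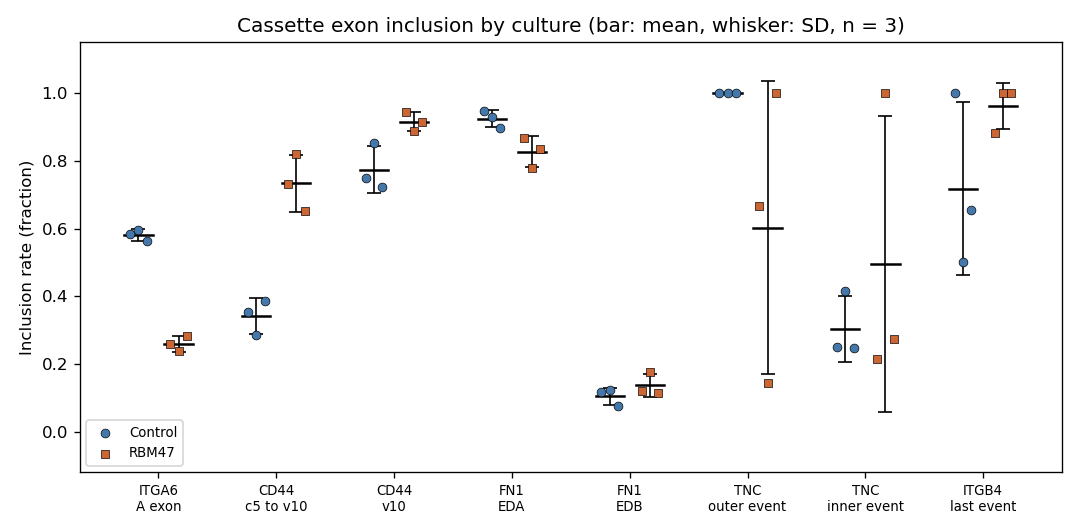
Inclusion rate (fraction) of 8 events in each culture, with Control as circles, RBM47 as squares, the mean as a bar and the SD over 3 cultures as a whisker. ITGA6 exon A (0.563 to 0.597 against 0.237 to 0.283) and the CD44 event from c5 to v10 (0.284 to 0.387 against 0.652 to 0.820) separate widely. CD44 v10 and FN1 EDA separate narrowly, and the events of TNC, ITGB4 and FN1 EDB overlap.

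CD44 had 16 events, 14 of them in the region of the variant exons v2 to v10, which lie between constant exon c5 (231 bases, chr11:35211382-35211612) and the next constant exon (63 bases, chr11:35236399-35236461). The 9 variant exons together span 1143 bases of mRNA and encode an optional part of the stem of the receptor. By junction reads, most CD44 transcripts in both groups carried none of them. The junction that joins c5 to the next constant exon had 5523 reads in Control and 2388 in RBM47 cultures. In the event with these outer ends, for which v10 was the only exon that the annotation joins to both flanks, the inclusion rate was 0.0464, 0.0673 and 0.0570 in Control and 0.101, 0.0781 and 0.0902 in RBM47 cultures. The RBM47 rates were all higher, by 0.0328 in the mean (Fisher's exact p = 2.47e-35), which is below the 0.2 that the study criteria ask for. With rates from the reads the difference was 0.0633. Including reads were 869 in Control and 753 in RBM47 cultures. If v10 is the exon counted, they include its junction with the next constant exon, which longer variants share. The junction of c5 with v10 had 226 reads in Control and 76 in RBM47 cultures. The higher rate therefore does not show more transcripts with v10 as their only variant exon.

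Inside this region, the event from c5 to v10 was the CD44 event that passed both the study criteria and the replicate-level test. Its rate was 0.355, 0.284 and 0.387 in Control and 0.731, 0.820 and 0.652 in RBM47 cultures. The groups were far apart, with means of 0.342 ± 0.0522 (SD, n = 3) and 0.734 ± 0.0839 (SD, n = 3), a difference of 0.392 and a limma adjusted p of 0.00788. Including reads went from 282 to 399 and skipping reads, over the junction of c5 with v10, from 226 to 76 (Fisher's exact p = 9.91e-23). The direct junction of c5 with v10 was thus used less in RBM47 cultures, and junctions with an exon between them more. Which of the 8 annotated exons between c5 and v10 was counted could not be told from the outer ends. The rates came from a row matched by the RBM47 average alone. That row lay at the place of CD44 in the gene order, and rates from the reads were 0.384 and 0.724.

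Exon v10 itself, counted between v9 (90 bases) and the next constant exon, was included at 0.748, 0.852 and 0.722 in Control and at 0.944, 0.888 and 0.916 in RBM47 cultures. All RBM47 rates were above all Control rates, with a difference of 0.142. Reads were 873 including and 100 skipping in Control and 1057 and 34 in RBM47 cultures (Fisher's exact p = 4.03e-11). The limma adjusted p was 0.0841, so that the difference did not pass the replicate-level test, and it is below 0.2.

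The events with v8 or an earlier variant exon as the downstream flank did not pass the study criteria. Exon v2, counted between c5 and v3, was nearly always skipped, with rates of 0.0377, 0.0116 and 0.00935 in Control and 0, 0.0137 and 0.00813 in RBM47 cultures. These rates overlapped. Reads were 28 including and 293 skipping in Control and 8 and 322 in RBM47 cultures, a lower share (Fisher's exact p = 0.000467). In 2 events from c5 to v8, which share the skipping junction (111 and 97 reads), rates overlapped. In the deeper of them, rates were 0.570, 0.733 and 0.602 in Control and 0.708, 0.722 and 0.705 in RBM47 cultures. The difference was 0.0765 (Fisher's exact p = 0.00875, limma adjusted p = 0.585). In the other, Control had 0.1504, 0.184 and 0.104 and RBM47 cultures 0.124, 0.2 and 0.234. The 3 events from c5 to v4 rested on the same 3 skipping reads in each group. Among them, 1 had rates of 0.2, 0 and 1 in Control and 1, 0.778 and 0.8 in RBM47 cultures, a difference of 0.459 that did not pass Fisher's exact test (p = 0.422) and was 0.0507 with rates from the reads. The 5 further events in the region, from c5 to v7, from v4 to v6 and from v6 to v8, had means that differed by at most 0.0408. Both CD44 events before the variant region had means of 0.999 to 1.

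**Figure D3:**
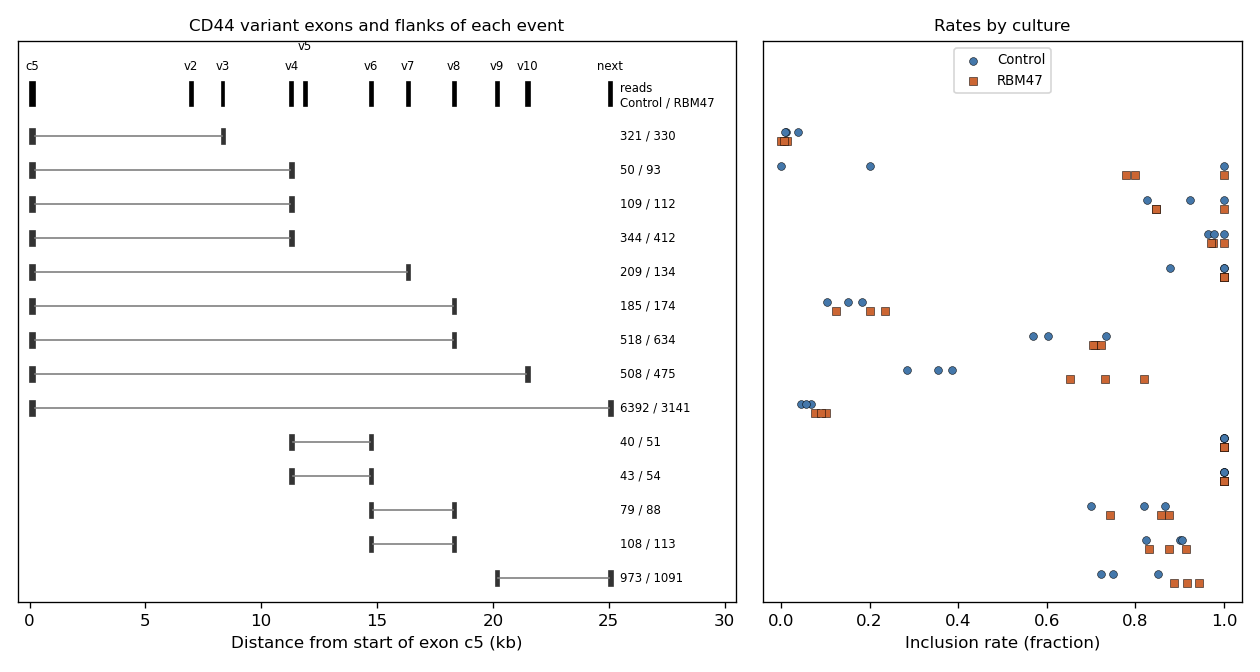
Left, the 14 CD44 events of the variant region drawn to scale as distance in kilobases from the start of exon c5, each as a line between its flanking exons, with the variant exons on top and the junction reads of each group at the right. Right, the inclusion rate (fraction) of each culture in the same rows. The RBM47 squares lie apart from the Control circles in the events from c5 to v10, from c5 to the next constant exon and from v9 to the next constant exon.

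Among the matrix proteins, FN1 had 9 events. Exon EDA was included in most transcripts, at 0.946, 0.930 and 0.898 in Control and 0.868, 0.778 and 0.835 in RBM47 cultures. The RBM47 rates were all lower, with means of 0.925 ± 0.0247 (SD, n = 3) and 0.827 ± 0.0458 (SD, n = 3) and a difference of -0.0976. Reads were 1552 including and 38 skipping in Control and 483 and 25 in RBM47 cultures (Fisher's exact p = 0.00652), and the limma adjusted p was 0.132, so that the difference passed neither the study criteria nor the replicate-level test. Rates from the reads, 0.953 and 0.906, differed by less, -0.0471. Exon EDB was mostly skipped, at 0.116, 0.123 and 0.0765 in Control and 0.119, 0.176 and 0.115 in RBM47 cultures. The groups overlapped, and the SD of the RBM47 cultures, 0.0343, was larger than the difference of 0.0319 (Fisher's exact p = 0.346). In these cells fibronectin was thus mainly the form with EDA and without EDB in both groups. The 7 other FN1 events differed by at most 0.0177, 6 of them with means of 0.936 or above and 1 at or near 0.

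TNC, a large matrix protein whose variable fibronectin repeats are encoded by separate exons, had 3 events with few reads. The outer event spans 5 annotated repeat exons, between outer ends given in the table as 116844318 and 116865288 on chromosome 9. Its rate was 1 in all 3 Control cultures and 0.667, 0.143 and 1 in RBM47 cultures. The groups shared the value 1, and the mean of the RBM47 cultures, 0.603 ± 0.432 (SD, n = 3), rested on replicate 2. Without that replicate the difference went from -0.397 to -0.167. Reads were 94 including and 0 skipping in Control and 24 and 4 in RBM47 cultures, so that 4 skipping reads carried the Fisher's exact p of 0.00233. The limma adjusted p was 0.414. With rates from the reads the difference was -0.250. The matched row did not lie at the place of TNC in the gene order, and the printed Control average of 0.163, an authors' mean, went against 94 including and 0 skipping reads.

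The inner TNC event, which spans 3 repeat exons, had rates of 0.25, 0.415 and 0.246 in Control and 0.214, 1 and 0.273 in RBM47 cultures. The groups overlapped, and RBM47 replicate 2 alone lay above all Control rates. Reads were 82 including and 71 skipping in Control and 29 and 15 in RBM47 cultures (Fisher's exact p = 0.170). The remaining TNC event, nearer the 5′ end of the gene, had means of 0.0431 and 0.0439.

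In AGRN, small z exons distinguish the form that clusters acetylcholine receptors at the nerve-muscle synapse. A 24-base exon at chr1:987373-987396 was counted with 122 and 129 reads between an 88-base exon and a 33-base exon downstream (chr1:988841-988873). The rate of the 24-base exon was 0.889, 1 and 1 in Control and 1 in each RBM47 culture. It is read only from transcripts that include the 33-base exon, not from all AGRN transcripts. The 2 other AGRN events start at the same exon and skip further downstream, with 1415 skipping reads in Control and 1782 in RBM47 cultures. In the deeper of them, rates were 0.0108, 0.0208 and 0.00444 in Control and 0.00526, 0.00248 and 0.0181 in RBM47 cultures, and the groups overlapped. Rates from the reads of both events were 0.0320 to 0.0407, so that skipping of this stretch prevailed in both groups.

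The number of junction reads itself differed between genes. In 23 of the 44 events (52.3%) the RBM47 total was at most 0.5 times the Control total, against 12.2% of all events. The total over all events was 0.910 times Control. All 3 ITGA6 events had ratios of 0.216 to 0.265, all 9 FN1 events of 0.279 to 0.409, the ITGB1 events of 0.213 to 0.390 and the TNC events of 0.288 to 0.568. ITGB4 had a median ratio of 0.567, ITGA3 of 0.836 and AGRN of 1.245. Events of 1 gene share reads, and the totals are pooled over the cultures of a group, so that these ratios have no replicate check and no test. In bulk RNA, fewer cells with a transcript and less of it per cell cannot be told apart.

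Within CD44 the ratio depended on the part of the gene. Both events before the variant region had ratios of 0.410 and 0.464. The junction that skips all variant exons had 0.432 times the Control reads. The 13 events with a variant exon as a flank had ratios from 0.641 to 1.86, with a median of 1.11. Not all variant exon junctions were alike, since the junction of c5 with v10 had 0.336 times and the junction of v9 with the next constant exon 0.340 times the Control reads, while including reads of the events from c5 to v10 and from v9 to the next constant exon had 1.415 and 1.211 times.

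**Figure D4:**
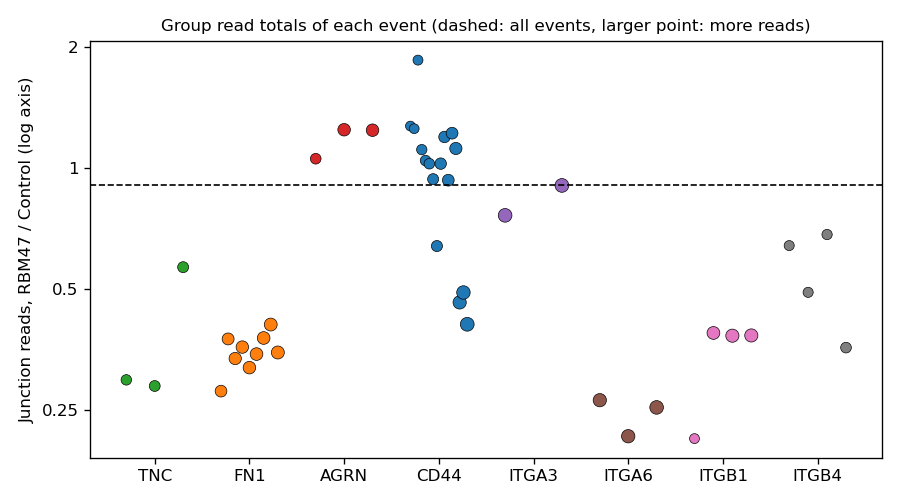
Junction reads of each event in RBM47 cultures divided by those in Control cultures (log axis), summed over 3 cultures a group, by gene, with larger points for more reads and a dashed line at 0.910, the ratio over all events. ITGA6, FN1, ITGB1 and TNC lie below the line, AGRN above it, and CD44 on both sides, with its 3 deepest events at 0.410 to 0.491.

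Some features of the exons were not used in the choice of genes. For 14 events the annotation gave 1 exon by gene and outer span alone, shared with no other event of the same ends. Of these, 10 (71.4%) had a length divisible by 3, which keeps the reading frame, against 46.6% of 8507 exons matched in this way over the table. The A exons of ITGA6 (130 bases) and ITGA3 (142 bases) were assigned by spacing and are not among the 14. Neither length is divisible by 3. The median length of the 14 was 177 bases, against 107. A run of TTTTT on the transcribed strand, searched in the 100 intron bases on each side, was present upstream of 4 (28.6%, against 41.4%) and downstream of 0 of 14 (against 29.8%). Exon v10 counts in 2 of the 14 events, and several exons belong to 1 gene, so that these shares are only described.

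Other genes of cell adhesion were read from lists of integrins, matrix ligands, other receptors and cytoplasmic adaptors. Of 203 events in 60 genes, 4 passed the study criteria (1.97%, against 1.41% of all events), 2 higher and 2 lower in RBM47 cultures. Among the remaining integrins, 4 of 20 genes had events, and 0 of 14 events passed the criteria (limma called 0 of 5 tested). The matrix list had 45 events and 1 past the criteria, the receptor list 46 and 1, and the adaptor list 98 and 2. limma called 1 event of the 203, in GIT2, an adaptor of focal adhesion turnover. Its rates were 0.806, 0.836 and 0.879 in Control and 0.396, 0.294 and 0.423 in RBM47 cultures, a difference of -0.469 (limma adjusted p = 0.00238).

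The others past the criteria were in CD47, a receptor for thrombospondin (difference of -0.214, limma adjusted p = 0.0586), PPFIBP1, a liprin (0.211, limma adjusted p = 0.268), and COL13A1, a transmembrane collagen (0.326, limma adjusted p = 0.215). Their groups did not overlap. Another CD47 event with the same left outer end went the other way, at 0.0798, 0.0552 and 0.0590 in Control and 0.289, 0.201 and 0.254 in RBM47 cultures. These groups did not overlap either, and the difference of 0.183 had a limma adjusted p of 0.00339 but is below 0.2. This CD47 event was named after its values were seen, and so were the further COL13A1 events. The COL13A1 event past the criteria rested on 181 reads in Control and 57 in RBM47 cultures. The other COL13A1 events with non-overlapping groups were all lower in RBM47 cultures. The deepest of them had a difference of -0.142 and a limma adjusted p of 0.0906. The rates of all 4 events past the criteria, like those of the leading ITGA6, CD44 and TNC events, were matched by the RBM47 average alone. For the CD47 event past the criteria, the printed averages, 0.0564 in Control and 0.122 in RBM47 cultures, went the other way. Its reads, 160 including and 122 skipping in Control against 150 and 501, had the direction of the matched rates.

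**Figure D5:**
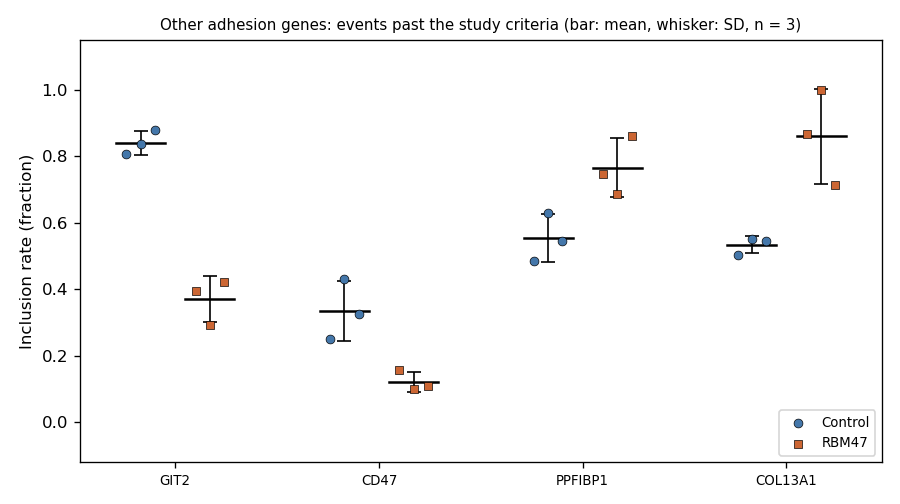
Inclusion rate (fraction) in each culture for the 4 events of other adhesion genes past the study criteria, with Control as circles, RBM47 as squares, the mean as a bar and the SD over 3 cultures as a whisker. GIT2 and CD47 are lower and PPFIBP1 and COL13A1 higher in RBM47 cultures, and no group overlaps the other.

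The events of other genes whose 6 rates lay nearest to those of the CD44 event from c5 to v10, by the mean absolute distance over the 6 cultures, were in ADAM15 (0.0650), ATG13 (0.0682), a gene on chromosome X whose symbol the table holds as a calendar date (0.0746), ZNF415 (0.0791) and PACRGL (0.0809). In ADAM15, a membrane metalloprotease that can bind integrins, the rate was 0.267, 0.333 and 0.370 in Control and 0.667, 0.697 and 0.702 in RBM47 cultures. All 3 RBM47 rates lay above all Control rates, and single cultures differed from the CD44 event by more than the mean distance, as in RBM47 replicate 2 with 0.697 against 0.820.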

How the data were processed

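Poly(A) RNA was sequenced as paired-end reads, and the authors counted reads over cassette exon junctions. The submitters' processing notes name TopHat. The build of the table's coordinates is not given in the sources used here. The authors deposited per-sample inclusion rates in fraction units, and read counts of the including and skipping isoform summed over the 3 samples of a group. Rates from the reads were computed here as reads over 2 including junctions divided by these plus 2 times the skipping reads. Not all deposited rates follow this formula. For 1 AGRN event it gave 0.0364 in Control, where the highest deposited rate was 0.00353. Columns with the authors' differences, odds ratios and p-values were not used.

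In 1392 of 24725 rows (5.63%) rates did not average to the printed averages within 3e-09, and 0 of these rows had a Fisher p above 0.05. Rates were re-matched through both averages (1122 rows) or the RBM47 average (253), and 17 rows were left without rates, leaving 24708 events. Rows matched by the RBM47 average keep no second check but the read totals. Rates recomputed from read totals can differ from the deposited ones, and the cause was not tested.

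Fisher's exact tests (two-sided, scipy 1.17.1) used the 4 read totals. limma 3.58.1 (R 4.3.3) was run on arcsine square root transformed rates of the 6000 events with a mean of 0.1 to 0.9, with the variance following log2 reads and Benjamini-Hochberg adjustment over all of them. Events were called at an adjusted p under 0.05 where the means differed by 0.2 or more. Both were also run on simulated data, and no result given here rests on those runs. Exons were assigned in the GENCODE annotation of GRCh37 by gene and outer span. The members, gene lists and tests were chosen with earlier results of these data known. Events described one by one are those past the study criteria and those with Fisher p of at most 0.05 and a difference of at least 0.1. For each member gene, the event with the most reads among those with a mean rate of 0.1 to 0.9 was added. Where a gene had none, its deepest event was taken. Others of the same gene are given beside them. Alternatives covered thresholds, read minimums, transformations, row matching, a replicate block and leaving out each sample.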

Additional observations from a re-analysis of the deposited data

How the results depend on the processing

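The row matching mattered most. With only rows aligned as deposited, 1 event passed the study criteria (the ITGB4 event), limma called 0 of 8 events tested (1 had an unadjusted p under 0.05, FN1 EDA), and 1 event had non-overlapping rates. All rows left out in this way had a Fisher's exact p of at most 0.05. This setting therefore removes events by their p, and lower counts were largely fixed in advance. Taking the rates that stand in the same row as deposited turned the sign of 4 differences, to 0.203 for ITGA6 exon A, -0.204 for CD44 from c5 to v10, 0.0687 for CD47 and -0.226 for COL13A1. The same choice gave 0.336 for the ITGA3 A exon and -0.149 for the outer TNC event. The read totals have the direction of the matched rates in these 4 events. Without the variance trend limma called 1 event, ITGA6 exon A, and the CD44 event had a limma adjusted p of 0.0735.

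Leaving out 1 sample at a time left 3 to 4 events past the study criteria and 2 to 2 called by limma. For the study criteria, this changed only the difference in mean rate. Reads are given only as group totals, so the Fisher p and the read minimum still included the reads of the omitted sample. Whether the Fisher p depends on a single sample was therefore not tested. The TNC event was lost without RBM47 replicate 2 (-0.167) and the ITGB4 event without Control replicate 2 (0.133). CD47 fell short without Control replicate 2 (-0.166), and PPFIBP1 without Control replicate 1 (0.178), without RBM47 replicate 3 (0.163) and with rates from summed reads (0.192). The ranges were -0.333 to -0.310 for ITGA6 exon A and 0.349 to 0.433 for CD44 from c5 to v10. With an adjusted Fisher p or a difference of 0.3, 3 events passed, with at least 30 reads in each group 3, and with a difference of 0.1, 5.

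With the replicate number as a block, limma again called 2 events, with adjusted p of 0.00383 for ITGA6 exon A and 0.0382 for the CD44 event. The numbers did not pair the samples, since deviations of same-numbered samples had r of -0.0225, -0.0055 and 0.0139. No count per sample was used, so that the depth of single rates is unknown, and the TNC and ITGB4 events rest on 10 or fewer skipping reads in each group.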
